A study of Mus musculus with 18 samples.

Results

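The Nrf2 antioxidant genes described here are 10 genes taken by symbol from the count table: *Nfe2l2*, *Keap1*, *Nqo1*, *Gclm*, *Gclc*, *Srxn1*, *Txnrd1*, *Slc7a11*, *Gsr* and *Sod2*. All 10 were found among the 16314 gene symbols of the table, and all 10 passed the filter on low counts that left 12021 genes for testing. Bulk RNA-seq was performed on bone marrow-derived macrophages (BMDMs) of *Prep*-/- mice and of *Prep*+/- littermates on a C57BL6/J background. *Prep* encodes prolyl endopeptidase, a serine protease that cuts short peptides after proline, and the study asked how its loss changes macrophages at rest and after activation. Femoral marrow cells were grown for 7 days with 50 ng/ml M-CSF, the growth factor that turns marrow precursors into macrophages, and all 6 groups share this culture. M0 cells then received no stimulus, while M1 cells were exposed to LPS at 50 ng/ml and M2 cells to IL-4 and IL-13 at 20 ng/ml each, both over 24 h. Each genotype and state had 3 libraries, which gives 18 in all. The controls were heterozygous, so that every comparison of genotypes sets no intact allele against 1 intact allele, and no wild-type cells are among these samples. The age of the mice is not given in the sources used here.

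Nrf2, the product of *Nfe2l2*, is the transcription factor that drives much of the cell's defence against oxidants and electrophiles. Keap1 holds it in the cytosol and hands it to a ubiquitin ligase, and when oxidants modify cysteines of Keap1 the newly made Nrf2 escapes degradation and enters the nucleus. There it pairs with a small Maf protein on antioxidant response elements near genes for glutathione synthesis, thioredoxin recycling and quinone detoxification. In macrophages the same programme accompanies the oxidative burst and restrains inflammatory gene expression. Because Nrf2 is controlled mainly through protein stability, the mRNA levels given here do not measure Nrf2 activity itself.

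The letters TGACNNNGC and TGAGNNNGC, where N is any base, spell the core of an antioxidant response element. They were searched on both strands in the 1000 bases before the start of each gene's canonical transcript in GRCm39. A match to either was found for 8 of the 10 genes, against 58.2% of 15403 protein-coding genes of the table, and within 300 bases for 5 of the 10, against 27.2%. For TGACNNNGC alone the counts were 6 of 10 within 1000 bases, where 29.4% of all genes had one, and for TGAGNNNGC alone 3 of 10, where 41.3% had one. No match to these letters lay in the window of *Gclc* or *Keap1*. The match nearest to the start is shown, core in capitals and 10 bases on either side, for the 6 genes with a match whose mRNA was lower in *Prep*-/- M0 cells. For *Srxn1* the core began 45 bases before the start (chr2:151947389-151947417, plus strand), for *Gclm* 54 bases before it (chr3:122039062-122039090, minus strand) and for *Txnrd1* 65 bases before it (chr10:82694938-82694966, minus strand). For *Slc7a11* it began 96 bases before the start (chr3:50398141-50398169, plus strand), for *Nqo1* 339 bases before it (chr8:108130255-108130283, minus strand) and for *Gsr* 516 bases before it (chr8:34142740-34142768, minus strand).
Srxn1: aaattcacccTGAGTCAGCggccgggcgc
Gclm: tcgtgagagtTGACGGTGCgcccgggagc
Txnrd1: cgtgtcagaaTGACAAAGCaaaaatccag
Slc7a11: aactccagctTGAGAAAGCgccaacatta
Nqo1: agagtcacagTGAGTCGGCaaaatttgag
Gsr: aaggtcacagTGACCAAGCggctttcttg
These stretches are matches of letters only. *Nfe2l2* and *Sod2*, which were not called lower in *Prep*-/- M0 cells, each had a match too, 262 and 558 bases before the start. For *Txnrd1*, *Gsr* and *Sod2* the canonical transcript starts downstream of the annotated start of the gene. The stretches of *Txnrd1* and *Gsr* and the match of *Sod2* therefore lie within the annotated gene.

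The libraries held 19068237 to 22598279 counts. *Prep* itself checked the genotype labels, with 551 to 900.0 normalized counts in the 9 *Prep*+/- libraries and 31.3 to 68.1 in the 9 *Prep*-/- libraries. Normalized counts are counts scaled by TMM library size to the mean of the 18 libraries. Pairs of replicates differed by more than sampling noise in every group. The pairs that include replicate 3 of *Prep*-/- M0 or replicate 3 of *Prep*-/- M2 differed most, with a chi-square per gene of 110.9 to 119.7 against 9.87 to 49.1 for all other pairs, and values without them are given where leaving them out changed a call. All 8 macrophage markers were detected, and their sum was 30386 to 48180 CPM in *Prep*-/- M0 libraries and 19002 to 22408 CPM in *Prep*+/- M0 libraries. *Lyz2* was the largest part of this sum in every library of all states, with 145799 to 828572 counts, where no other marker passed 102556 (*Adgre1*). The summed markers of B cells, T and NK cells, granulocyte precursors and dendritic cells were also higher in *Prep*-/- M0 without overlap, while those of stromal, erythroid and mast cells overlapped between genotypes. The B cell sum there was 8.66 to 11.5 CPM, where *Prep*+/- M0 had 3.01 to 4.79 (3 of 5 markers in the table), but *Cd79a* and *Ms4a1* had at most 4 and 1 counts in any library and the sum was nearly all *Cd79b*. For T and NK cells it was 7.84 to 29.7 CPM, where *Prep*+/- M0 had 0.750 to 0.962 (3 of 7 in the table), nearly all of it *Cd4*, with at most 1 count of *Cd3d* or *Nkg7*. Granulocyte precursor markers summed to 57.3 to 127 CPM, where *Prep*+/- M0 had 26.5 to 37.1 (8 of 8 in the table). Over all libraries, *S100a8*, *S100a9*, *Ngp* and *Camp* reached 1163, 974, 951 and 162 counts. *Elane*, *Mpo*, *Prtn3* and *Ctsg* had at most 9, 24, 26 and 7. Dendritic cell markers summed to 0.877 to 1.17 CPM, where *Prep*+/- M0 had 0.160 to 0.410. Hepatocyte markers reached 14.996 CPM in *Prep*-/- M0 replicate 3 and at most 0.868 CPM in any other library. The part of these cells in the results was not tested.

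**Figure D1:**
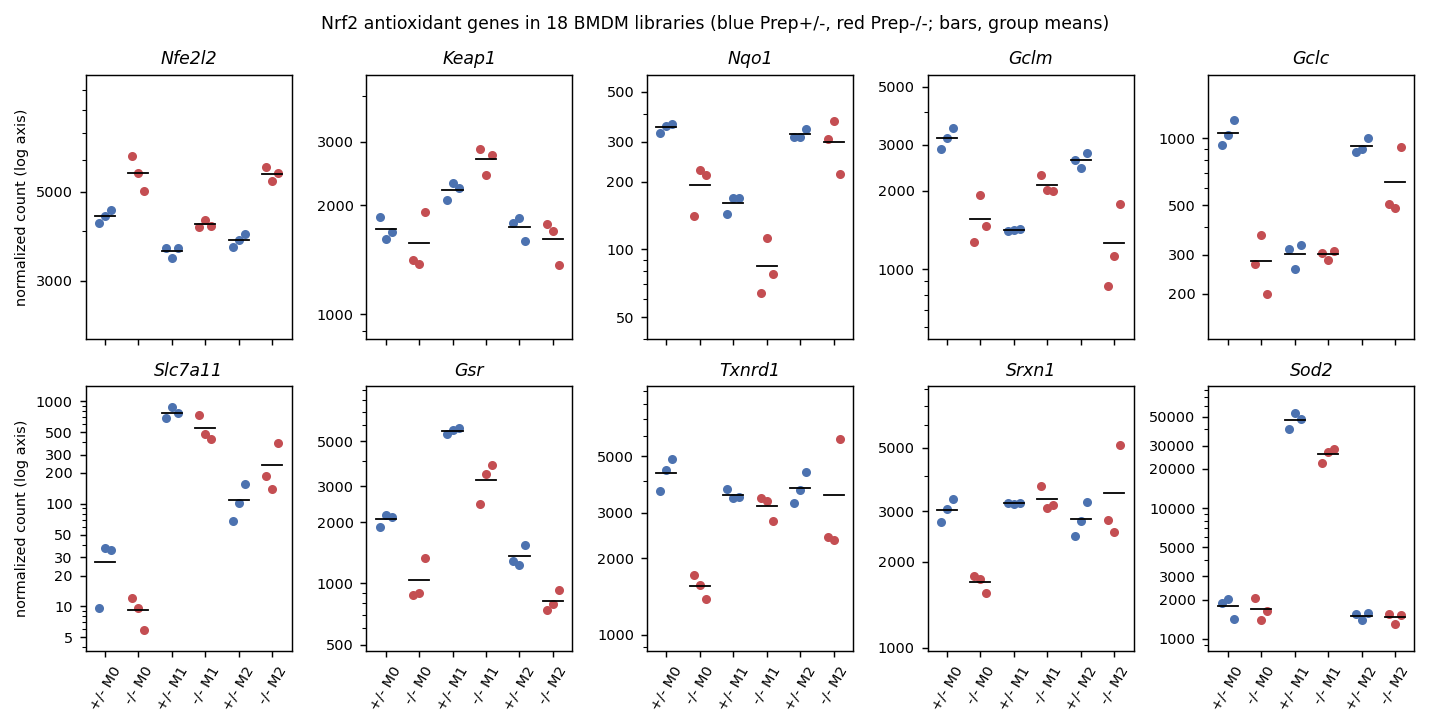
Normalized counts of each of the 10 genes (y axis, log scale, a separate range for each gene) in the 18 libraries, by genotype and state (x axis). Blue points are Prep+/- and red points Prep-/- libraries, and black bars are group means of 3. In M0 the red points of Gclc, Txnrd1, Srxn1, Gclm, Gsr and Nqo1 all sit below the blue ones, and in M2 the third red point of Txnrd1, at 5862, stands far above the other two.

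In quiescent M0 BMDMs, knockout of *Prep* lowered the mRNA of 7 of the 10 genes: both subunits of the enzyme that starts glutathione synthesis (*Gclc* and *Gclm*), the cystine importer *Slc7a11*, the reductases *Gsr*, *Txnrd1* and *Srxn1*, and the quinone reductase *Nqo1*. None of the 10 was called higher. A gene was called when its adjusted p was under 0.05 and its fold change over 1.5, and by this criterion 32.6% of all 12021 genes were called in M0, 17.2% lower and 15.4% higher. The median log2 fold change of the 10 genes was -0.93, and that of all genes 0.02. The libraries of the 2 genotypes did not overlap for 7 of the 10 genes, against 52.6% of all genes. These were not the same 7: *Slc7a11* overlapped, and *Nfe2l2*, which was higher and not called, did not. Without *Prep*-/- M0 replicate 3, 6 genes were called, all lower, and *Slc7a11* was the one lost. In that setting 18.5% of all genes were called lower and 16.1% higher. In bulk RNA, fewer cells of a type and less RNA per cell cannot be told apart.

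*Gclc* (GRCm39 chr9:77661797-77701770, plus strand), the catalytic subunit of glutamate-cysteine ligase, had the largest fall. It stood at 939, 1038 and 1213 normalized counts in *Prep*+/- M0 and at 272, 368 and 199 in *Prep*-/- M0, so that the highest knockout library was far below the lowest control. The log2 fold change was -1.92 ± 0.23 (SE, n = 3), or 3.80-fold lower, with an adjusted p of 8.6e-06 by edgeR's quasi-likelihood test. *Gclm* (chr3:122039126-122065061, plus strand), its modifier subunit, which makes the enzyme more efficient, had 2881, 3173 and 3474 normalized counts in *Prep*+/- M0 against 1274, 1924 and 1469 in *Prep*-/- M0. Its log2 fold change was -1.03 ± 0.20 (adjusted p = 0.000456). Thus the mRNAs of both subunits fell.

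*Slc7a11* (chr3:49846975-50398070, minus strand) is the light chain of the exchanger that brings in cystine, the raw material of glutathione. It was barely expressed in M0, at 9.65, 36.7 and 35.6 normalized counts in *Prep*+/- and 12.0, 9.74 and 5.86 in *Prep*-/- cells. The genotypes overlapped, because 1 *Prep*+/- library was as low as the knockout. The log2 fold change was -1.58 ± 0.61 with an adjusted p of 0.0410, and leaving out any of 5 of the 6 libraries (all but *Prep*+/- M0 replicate 1) raised the adjusted p to between 0.0616 and 0.130. In addition, the *Slc7a11* transcript holds stretches of 482 to 585 bases that are 92.5% to 93.6% identical to *Tuba1a*, *Tuba1b* and *Tuba1c*, and how reads of such stretches were assigned is not given in the sources used here.

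*Gsr* (chr8:34142551-34188192, plus strand), the reductase that restores glutathione from its oxidized form, had 1903, 2174 and 2129.9 normalized counts in *Prep*+/- M0 against 874, 902 and 1330.1 in *Prep*-/- M0. This was 1.999-fold lower, a log2 fold change of -0.999 ± 0.17 (adjusted p = 0.000176). *Txnrd1* (chr10:82669785-82733546, plus strand), the cytosolic reductase that keeps thioredoxin active, went from 3655, 4421 and 4879 to 1723, 1574 and 1383 normalized counts, a log2 fold change of -1.47 ± 0.26 (adjusted p = 0.000249). *Txnrd1* lies on the chromosome that also carries *Prep* (chr10:44943130-45043294), and a difference linked to the targeted locus cannot be told apart from one of the knockout there. *Eid3*, which lies within *Txnrd1* on the same strand, has its own row in the table. *Srxn1* (chr2:151947436-151957687, plus strand) encodes sulfiredoxin, which repairs over-oxidized peroxiredoxins. It moved from 2757, 3054 and 3306 to 1779.7, 1742 and 1557 normalized counts, a log2 fold change of -0.84 ± 0.19 (adjusted p = 0.00199). In all 3 reductase genes every *Prep*-/- library lay below every *Prep*+/- library.

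*Nqo1* (chr8:108113835-108129934, minus strand), the 2-electron reductase of quinones that is often read as a reporter of Nrf2, was a low-abundance transcript here. Its 3 *Prep*+/- M0 libraries stood at 329, 353 and 361 normalized counts and its 3 *Prep*-/- M0 libraries at 141, 224 and 213. The log2 fold change was -0.85 ± 0.21 (adjusted p = 0.00341).

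The regulators *Nfe2l2* and *Keap1* were not called lower with these genes. *Nfe2l2* (chr2:75504739-75534985, minus strand) was at 4177, 4355 and 4506 normalized counts in *Prep*+/- M0 and at 6139, 5582 and 5029 in *Prep*-/- M0, so that each knockout library was above each control. Its adjusted p was 0.00250, but at a log2 fold change of 0.36 ± 0.09 (1.28-fold) it stayed under the fold criterion and was not called. *Keap1* (chr9:21141026-21150679, minus strand) had 1859.8, 1614 and 1689 normalized counts in *Prep*+/- and 1417, 1375 and 1924 in *Prep*-/- M0 cells, with overlap between genotypes and a log2 fold change of -0.13 ± 0.13 (adjusted p = 0.434). *Sod2* (chr17:13224095-13259591, plus strand), the manganese superoxide dismutase of mitochondria, is driven mainly by NF-kappaB in macrophages and overlapped between genotypes, at 1701 ± 340.5 (SD) in *Prep*-/- and 1774 ± 317 in *Prep*+/- (log2 fold change -0.06 ± 0.16, adjusted p = 0.787).

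**Figure D2:**
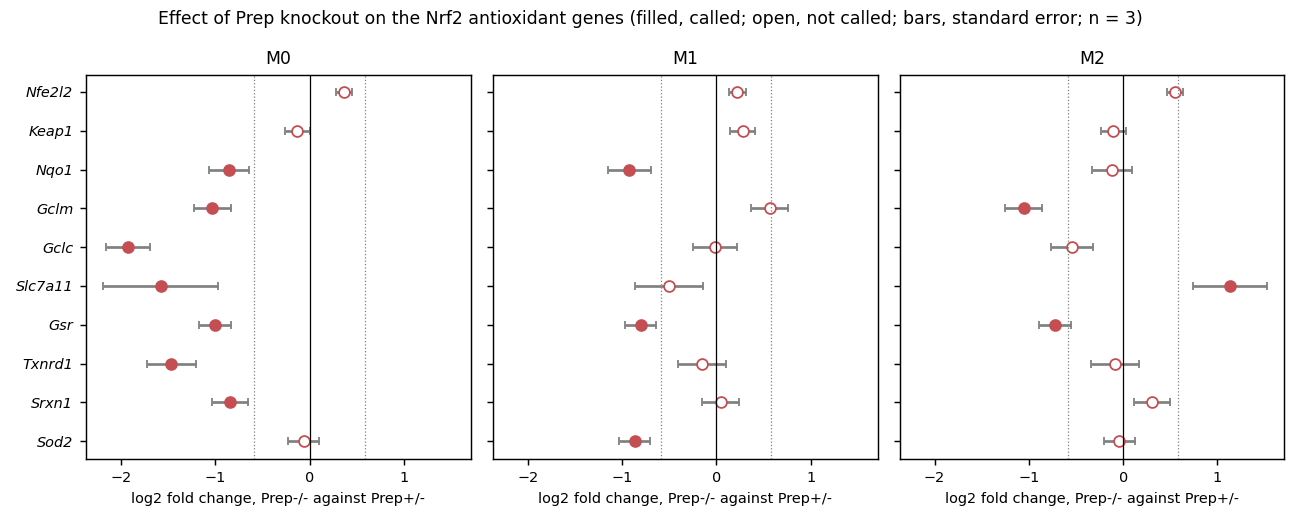
Log2 fold change of Prep-/- against Prep+/- (x axis) for each of the 10 genes (y axis) in M0, M1 and M2 cells, from edgeR on 3 libraries per group. Bars are standard errors, filled points passed both criteria and open points did not, and dotted lines mark a fold change of 1.5. In M0, 7 filled points lie left of 0; in M1 there are 3, and in M2 there are 2 on the left and Slc7a11 on the right at 1.14.

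After LPS, fewer of these genes, and fewer of all genes, were called lower in *Prep*-/- cells than in M0. In M1, 3 of the 10 genes were called lower in *Prep*-/- and none higher, where 10.2% of all genes were called lower, 12.3% higher and 22.5% in either direction. The 3 were *Sod2*, *Gsr* and *Nqo1*. The median log2 fold change of the 10 genes was -0.08, against 0.04 for all genes, and the genotypes did not overlap for 6 of the 10, against 56.9% of all genes. The summed macrophage markers were lower in *Prep*-/- M1, at 31000 to 37043 CPM where *Prep*+/- M1 had 45757 to 47208, and so were those of granulocyte precursors (46.7 to 64.0 CPM, where *Prep*+/- M1 had 72.6 to 135) and stromal cells (6.21 to 18.1 CPM, where it had 19.1 to 21.8). Those of B cells (5.09 to 6.96 CPM, where *Prep*+/- M1 had 2.06 to 2.59) and of T and NK cells (2.27 to 3.27 CPM, where it had 0.675 to 1.35) were higher, and the part of these cells in the M1 results was not tested.

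*Sod2* was the most abundant of the 10 genes in M1. Its normalized counts were 39995, 53079.6 and 47733 in *Prep*+/- M1 against 21892, 27008 and 28440.3 in *Prep*-/- M1, 1.82-fold lower with no overlap. The log2 fold change was -0.86 ± 0.16 (adjusted p = 0.00106). Per kilobase of its canonical transcript, *Sod2* reached 371 ± 52.0 CPM (SD, n = 3) in *Prep*+/- M1 against 204 ± 27.2 in *Prep*-/- M1, while the next of the 10 genes on this scale, *Gsr*, was at 99.9 ± 3.63 and 57.3 ± 12.3. Several stretches of about 200 bases in the *Sod2* transcript match other transcripts at 90% identity or more. *Gsr* was at 5426, 5703 and 5828 normalized counts in *Prep*+/- M1 and at 2467, 3435 and 3819.7 in *Prep*-/- M1, a log2 fold change of -0.80 ± 0.17 (adjusted p = 0.001985). *Nqo1* reached its lowest level of all groups in *Prep*-/- M1, with 63.8, 112 and 77.5 normalized counts against 144, 169 and 169 in *Prep*+/- M1. Its log2 fold change of -0.92 ± 0.23 (adjusted p = 0.00585) was close to that in M0.

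*Gclc*, *Txnrd1*, *Srxn1* and *Slc7a11*, called lower in M0, did not pass the test in M1. *Gclc* had 317, 259 and 332 normalized counts in *Prep*+/- M1 against 305, 285 and 311 in *Prep*-/- M1, with full overlap and a log2 fold change of -0.01 ± 0.23 (adjusted p = 0.975). *Txnrd1* was at 3737, 3432 and 3456 and at 3438, 3336 and 2792 normalized counts (log2 fold change -0.15 ± 0.25, adjusted p = 0.666), and *Srxn1* at 3219, 3185 and 3206 and at 3678, 3071 and 3161 (0.04 ± 0.19, adjusted p = 0.873). *Slc7a11*, at 687, 871 and 762 in *Prep*+/- and 733, 479 and 428 in *Prep*-/- M1, did not pass either (log2 fold change -0.50 ± 0.36, adjusted p = 0.290). *Gclm* went the other way from M0: its 3 *Prep*-/- M1 libraries, at 2291, 2011 and 1991 normalized counts, were all above the *Prep*+/- M1 libraries at 1405, 1416 and 1433. The adjusted p was 0.0333 and the log2 fold change 0.57 ± 0.20, just under the fold criterion at 1.48-fold. *Nfe2l2* and *Keap1* were also without overlap and higher in *Prep*-/- M1, by log2 fold changes of 0.22 ± 0.09 (adjusted p = 0.0518) and 0.28 ± 0.13 (adjusted p = 0.104), neither past the threshold.

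In M2 cells, *Gclm* and *Gsr* were called lower and *Slc7a11* higher in *Prep*-/-, where 9.82% of all genes were called lower, 6.37% higher and 16.2% in either direction. The median of the 10 genes was -0.10 and that of all genes 0.03 (log2 fold change), and the genotypes did not overlap for 3 of the 10 genes, against 42.1% of all genes. Macrophage markers summed to 13889 to 19565 CPM in *Prep*-/- M2 libraries and to 10027 to 12203 in *Prep*+/- M2 libraries, those of T and NK cells to 1.55 to 2.46 and 0.213 to 0.461 CPM, and their part in the M2 results was not tested. *Gclm* had 2612, 2443 and 2782 normalized counts in *Prep*+/- M2 against 865, 1123 and 1783 in *Prep*-/- M2, a log2 fold change of -1.05 ± 0.20 (adjusted p = 0.000963). *Gsr* had 1288, 1234 and 1547 in *Prep*+/- M2 against 742, 788 and 927 in *Prep*-/- M2 (-0.73 ± 0.17, adjusted p = 0.00512). Both genes were lower in every knockout library, and *Gsr* was the gene of the 10 that was called lower by knockout in all 3 states. *Nfe2l2*, at 3641, 3798 and 3935 in *Prep*+/- M2 against 5774, 5312 and 5585 in *Prep*-/- M2, again had every knockout library above every control. At 1.47-fold (0.55 ± 0.09 on the log2 scale, adjusted p = 0.000241) it fell just short of the fold criterion, and it was called without *Prep*+/- M2 replicate 3 or *Prep*-/- M2 replicate 2 (0.59 either way, adjusted p = 0.000966 and 0.000455).

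The other M2 results turned on *Prep*-/- M2 replicate 3, which was the highest of its group for 6 of the 10 genes (*Gclm*, *Gclc*, *Slc7a11*, *Gsr*, *Txnrd1* and *Srxn1*). *Prep*+/- M2 replicate 3 was in turn the highest of its own group for 9 of the 10 genes, these 6 among them. Libraries of number 3 also deviated together most in this comparison (correlation 0.462), and they were not left out together. *Txnrd1* stood at 3279, 3677 and 4323 normalized counts in *Prep*+/- M2 and at 2416, 2349 and 5862 in *Prep*-/- M2. With all libraries its log2 fold change was -0.09 ± 0.25 (adjusted p = 0.845), and without *Prep*-/- M2 replicate 3 it was -0.65 ± 0.14 (adjusted p = 0.00231), which is called. *Gclc*, at 872, 901 and 1007 in *Prep*+/- M2 against 506, 488 and 919 in *Prep*-/- M2, moved from -0.54 ± 0.22 (adjusted p = 0.0859) to -0.89 ± 0.18 (adjusted p = 0.00175) in the same way. With replicate numbers as a block among the M2 libraries, *Gclc* was called too, at -0.60 ± 0.16 (adjusted p = 0.0383). *Slc7a11*, with 68.6, 101 and 156 normalized counts in *Prep*+/- M2 against 185, 139 and 389.5 in *Prep*-/- M2, went from 1.14 ± 0.39 (adjusted p = 0.0427) to 0.59 ± 0.35 (adjusted p = 0.216) and was then no longer called. Its call was also lost without *Prep*+/- M2 replicate 1 or 2 or *Prep*-/- M2 replicate 1, with adjusted p values of 0.0528 to 0.167. Without *Prep*-/- M2 replicate 3, the M2 comparison gave 4 genes lower (*Gclm*, *Gclc*, *Gsr* and *Txnrd1*) and 0 higher. In that setting 13% of all genes were called lower and 8.61% higher.

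*Srxn1* in M2 had 2463, 2773 and 3244 normalized counts in *Prep*+/- and 2796, 2549 and 5126 in *Prep*-/- cells, with the same library on top, and did not pass (log2 fold change 0.30 ± 0.19, adjusted p = 0.271). Without *Prep*-/- M2 replicate 3 it was -0.07 ± 0.12 (adjusted p = 0.704). *Nqo1*, *Keap1* and *Sod2* overlapped between genotypes in M2, with log2 fold changes of -0.12 ± 0.21, -0.11 ± 0.13 and -0.04 ± 0.17 and adjusted p values of 0.718, 0.601 and 0.886.

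Polarization was then followed from M0 within each genotype. These comparisons share the M0 libraries with the M0 knockout comparison, so that a low M0 level in *Prep*-/- cells enters both. In *Prep*+/- cells LPS raised *Slc7a11*, *Sod2* and *Gsr* and lowered *Gclc*, *Gclm* and *Nqo1*, which makes 6 of the 10 genes, where 37.7% of all genes were called (16.7% higher, 20.9% lower). *Slc7a11* rose 27.7-fold (log2 fold change 4.79 ± 0.45, adjusted p = 2.1e-07), *Sod2* 26.5-fold (4.73 ± 0.19, adjusted p = 2e-11) and *Gsr* 2.73-fold (1.45 ± 0.17, adjusted p = 2.2e-06). *Gclc* fell 3.51-fold (-1.81 ± 0.23, adjusted p = 5.4e-06), *Gclm* 2.24-fold (-1.16 ± 0.20, adjusted p = 0.000105) and *Nqo1* 2.17-fold (-1.12 ± 0.22, adjusted p = 0.000368). Among control cells, the mRNA of the cystine importer thus rose while those of both ligase subunits fell.

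In *Prep*-/- cells LPS raised 6 of the 10 genes and lowered *Nqo1* (2.28-fold, log2 fold change -1.19 ± 0.23, adjusted p = 0.000288), where 42.0% of all genes were called (20.9% higher, 21.0% lower). *Slc7a11*, *Sod2* and *Gsr* rose here as well, by log2 fold changes of 5.87 ± 0.52, 3.92 ± 0.18 and 1.65 ± 0.17. *Txnrd1* (1.03 ± 0.26, adjusted p = 0.00270), *Srxn1* (0.96 ± 0.19, adjusted p = 0.000487) and *Keap1* (0.77 ± 0.13, adjusted p = 0.000109) were called higher. In *Prep*+/- cells the corresponding values of *Txnrd1* and *Srxn1* were -0.29 ± 0.25 (adjusted p = 0.363) and 0.08 ± 0.19 (adjusted p = 0.762), and that of *Keap1* was 0.36 ± 0.13 (adjusted p = 0.0306, under the fold criterion). *Gclc* and *Gclm*, which fell in *Prep*+/- cells, gave 0.10 ± 0.23 (adjusted p = 0.727) and 0.43 ± 0.20 (adjusted p = 0.0694) in *Prep*-/- cells. *Nfe2l2* declined slightly under LPS in both genotypes, by log2 fold changes of -0.29 ± 0.09 (adjusted p = 0.00980) and -0.43 ± 0.09 (adjusted p = 0.000481), both under the fold criterion.

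**Figure D3:**
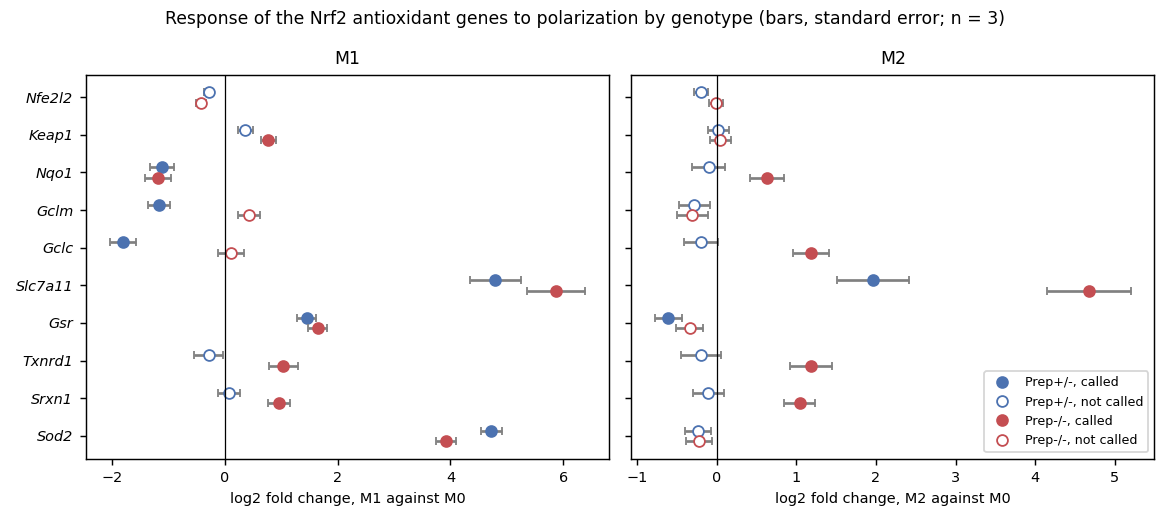
Log2 fold change of M1 (left) and M2 (right) against M0 (x axes, separate ranges) for each of the 10 genes (y axis) in Prep+/- (blue) and Prep-/- (red) BMDMs, from edgeR on 3 libraries per group. Bars are standard errors, filled points were called and open points were not. For Gclc, Txnrd1, Srxn1, Slc7a11, Gsr and Keap1 the red points lie right of the blue ones in both panels, for Keap1 in M2 only slightly.

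With IL-4 and IL-13, *Slc7a11* rose in *Prep*+/- cells (log2 fold change 1.96 ± 0.45, adjusted p = 0.00523) and *Gsr* fell (-0.61 ± 0.17, adjusted p = 0.0172). Thus 2 of 10 were called, where 12.9% of all genes were (6.09% higher, 6.77% lower). The call of *Gsr* lies close to the fold criterion, and it was lost when any of 4 of the 6 libraries was left out (adjusted p 0.0596 to 0.0832). In *Prep*-/- cells 5 of the 10 genes were called, all higher, where 30.2% of all genes were called (14.7% higher, 15.5% lower). *Slc7a11* rose by 4.67 ± 0.52 on the log2 scale (adjusted p = 2.7e-06), *Gclc* by 1.19 ± 0.23 (adjusted p = 0.000505), *Txnrd1* by 1.18 ± 0.26 (adjusted p = 0.00145), *Srxn1* by 1.04 ± 0.20 (adjusted p = 0.000400) and *Nqo1* by 0.63 ± 0.21 (adjusted p = 0.0236). Without *Prep*-/- M2 replicate 3 these 5 were still called, at smaller sizes for *Slc7a11* (4.11 ± 0.47), *Gclc* (0.82 ± 0.18), *Srxn1* (0.65 ± 0.12) and *Txnrd1* (0.60 ± 0.14) and at 0.80 ± 0.20 for *Nqo1*. *Gclm* joined them as a fall of -0.66 ± 0.15 (adjusted p = 0.00290). In that setting 1421 of 12146 genes were called higher and 1735 lower. The call of *Nqo1* was lost without *Prep*-/- M0 replicate 1 or *Prep*-/- M2 replicate 1 or 2 (adjusted p 0.0743 to 0.151).

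Whether knockout acted differently by state was tested directly as the difference of 2 log2 fold changes, with all comparisons resting on the same 6 M0 libraries. From M0 to M1 the difference was called for 5 of the 10 genes, where 21.1% of all genes were called (12.0% higher, 9.15% lower). It was positive for *Gclc*, *Gclm*, *Txnrd1* and *Srxn1*, in which the knockout effect was more negative in M0 than in M1, and negative for *Sod2*, in which it was more negative in M1. From M0 to M2 it was called for 4 of the 10 genes, *Slc7a11*, *Gclc*, *Txnrd1* and *Srxn1*, all positive, where 8.66% of all genes were called (4.53% higher, 4.13% lower). Without *Prep*-/- M2 replicate 3 these 4 were called too, and *Nqo1* as the fifth, at 0.93 ± 0.27 (adjusted p = 0.0482). In that setting 404 of 12146 genes were called higher and 398 lower. *Nqo1* and *Gsr*, which were called lower by knockout in M0 and M1, had differences of -0.07 ± 0.31 (adjusted p = 0.884) and 0.20 ± 0.24 (adjusted p = 0.571) between these states. A difference of moderate size would not be detectable with these errors. For *Gclm*, the M2 and M0 effects differed by -0.03 ± 0.28 (adjusted p = 0.969).

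The order of the 6 groups differed from gene to gene. *Txnrd1* and *Srxn1* were lowest in *Prep*-/- M0, at 1560.2 ± 171 and 1693 ± 119 normalized counts (SD, n = 3), without overlap with the next group, and their other 5 groups overlapped each neighbour in the order. *Gclc* was lowest in *Prep*-/- M0 as well, but there it overlapped both M1 groups. For *Nfe2l2* the *Prep*-/- M0 and *Prep*-/- M2 groups were the highest, at 5583 ± 555 and 5557 ± 232, overlapped each other and lay above the other 4 groups. *Gsr* and *Sod2* were highest in *Prep*+/- M1 and next highest in *Prep*-/- M1. Over the 6 group means of log2 CPM, each centred on its own mean, *Txnrd1* and *Srxn1* were the members most like one another, with a root mean square difference of 0.239. The member closest to *Keap1* was *Srxn1* (0.310), *Nqo1* and *Gclc* were closest to each other (0.453), *Nfe2l2* was closest to *Keap1* (0.475), *Gclm* to *Txnrd1* (0.496), *Gsr* to *Keap1* (0.756), *Sod2* to *Gsr* (1.302) and *Slc7a11* to *Sod2* (1.51). Among all tested genes outside the 10, the closest profile was that of *Ccnyl1* for *Txnrd1* (0.105), *Cyb5b* for *Srxn1* (0.0852), *Rgs9* for *Gclc* (0.178), *Hnrnpa2b1* for *Nqo1* (0.160), *Hdac4* for *Gclm* (0.144) and *Rab32* for *Gsr* (0.139). It was *Srrm2* for *Nfe2l2* (0.0545), *Usp15* for *Keap1* (0.0248), *Gipr* for *Sod2* (0.212) and *Tarm1* for *Slc7a11* (0.475). Among all other tested genes, the closest member ranked from 126 in likeness (for *Txnrd1*) to 6212 (for *Nfe2l2*). For *Nfe2l2* and *Keap1* its difference was larger than the root mean square of the gene's own centred profile (0.250 and 0.279). These likenesses are over 6 group means that share libraries and are descriptions only.

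A further 73 genes of the pathway were taken as a list, from partners of Nrf2 to enzymes of glutathione, thioredoxin, NADPH, heme and iron metabolism, and 71 of them passed the filter on low counts. In M0, 13 of the 71 were called higher (18.3%, where 15.4% of all genes were) and 11 lower (15.5%, where 17.2% were), with a median log2 fold change of 0.02. In M1 the counts were 10 higher (14.1%, with 12.3% of all genes) and 7 lower (9.86%, with 10.2%), with a median of -0.07. In M2 they were 4 higher (5.63%, with 6.37% of all genes) and 6 lower (8.45%, with 9.82%), with a median of -0.03. With all libraries these shares lay near those of all genes. Leaving out replicate 3 of *Prep*-/- M0 or of *Prep*-/- M2 was an alternative chosen for these genes after seeing the data. Without the former, the M0 counts were 10 higher (14.1%, with 16.1% of all genes) and 16 lower (22.5%, with 18.5%). Without the latter, the M2 counts were 8 higher (11.3%, with 8.61% of all genes) and 4 lower (5.63%, with 13%). The largest rises in M0 were *Mgst1*, a microsomal glutathione transferase, with a log2 fold change of 1.85 ± 0.19 (adjusted p = 2e-06), and *Txnip*, the inhibitor that binds thioredoxin, with 1.54 ± 0.15 (adjusted p = 1.3e-06). The largest falls were *Chac1*, which degrades glutathione, with 29.9, 63.5 and 60.2 normalized counts in *Prep*+/- M0 against 1.004, 0.886 and 5.86 in *Prep*-/- M0 (-4.27 ± 0.70, adjusted p = 0.000122), and *Me1*, an NADPH-producing malic enzyme (-1.88 ± 0.30, adjusted p = 9.9e-05).

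**Figure D4:**
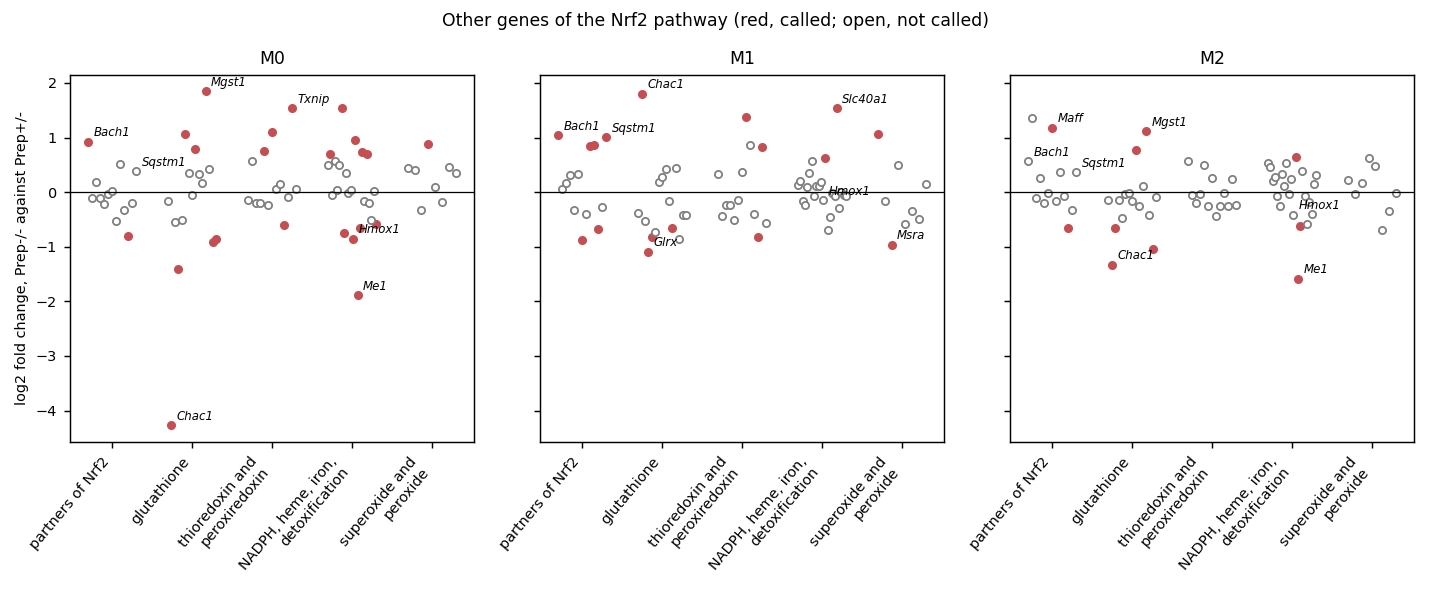
Log2 fold change of Prep-/- against Prep+/- (y axis) for the 71 tested genes of the wider pathway, in 5 lists (x axis), in M0, M1 and M2. Red points were called and open points were not, and the genes named by rule are labelled. In M0, 13 red points lie above 0 and 11 below, with Chac1 lowest at -4.27.

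In M1 the largest rises of the wider list were *Chac1* (1.80 ± 0.50, adjusted p = 0.0107) and the iron exporter *Slc40a1* (1.54 ± 0.26, adjusted p = 0.000472), and the largest falls were the glutaredoxin *Glrx* (-1.09 ± 0.16, adjusted p = 0.000191) and the methionine sulfoxide reductase *Msra* (-0.96 ± 0.15, adjusted p = 0.000242), all as log2 fold changes. In M2 the largest rises were the small Maf protein gene *Maff* (1.18 ± 0.32, adjusted p = 0.0133) and *Mgst1* (1.12 ± 0.18, adjusted p = 0.000370). The largest falls in M2 were *Me1* (-1.58 ± 0.30, adjusted p = 0.00119) and *Chac1* (-1.33 ± 0.47, adjusted p = 0.0484). *Chac1* was thus called in all 3 states, lower in M0 and M2 and higher in M1.

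*Hmox1*, the heme oxygenase that Nrf2 induces and Bach1 represses, was at 17119.7, 17804 and 19617 normalized counts in *Prep*+/- M0 against 8557, 9020.4 and 12641 in *Prep*-/- M0. It was called lower there (-0.85 ± 0.22, adjusted p = 0.00517). In M1 it was far more abundant, at 101917 ± 2173 (SD) normalized counts in *Prep*+/- and 91926 ± 9746 in *Prep*-/- cells, and the log2 fold change was -0.15 ± 0.22 (adjusted p = 0.624). In M2 it had 15844, 15517 and 19959 normalized counts in *Prep*+/- and 9327, 9905 and 19337 in *Prep*-/- cells, with replicate 3 again at the level of the controls (-0.41 ± 0.22, adjusted p = 0.196). Without that library it was called lower in M2 as well (-0.82 ± 0.17, adjusted p = 0.00181). *Bach1*, which competes with Nrf2 for the same elements, was at 1275, 1335 and 1574 normalized counts in *Prep*+/- M0 against 2982, 2914 and 2024 in *Prep*-/- M0. It was called higher in M0 (0.92 ± 0.18, adjusted p = 0.000529) and in M1 (1.05 ± 0.18, adjusted p = 0.000582), and in M2 its log2 fold change of 0.57 ± 0.18 (adjusted p = 0.0286) was under the fold criterion. Without replicate 3 of *Prep*-/- M2 it was called there too (0.76 ± 0.15, adjusted p = 0.00147). *Sqstm1* encodes p62, an adaptor that draws Keap1 into autophagy. It was called higher in *Prep*-/- M1, with 37243, 22809 and 22080.3 normalized counts against 13621, 14202 and 12996 (1.01 ± 0.16, adjusted p = 0.000289), and gave 0.38 ± 0.16 (adjusted p = 0.0531) in M0 and 0.36 ± 0.16 (adjusted p = 0.103) in M2.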

How the data were processed

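Reads were processed by the authors with Trimmomatic (0.36), HISAT2 (2.2.1.0) on GRCm39 and StringTie2, and they deposited counts per gene symbol without normalization for 18 libraries, 3 in each of 6 groups. The libraries were made with a stranded mRNA kit. The annotation release, the strand setting and the treatment of reads that match several genes are not given in the sources used here. Samples were grouped by the labelled genotype and treatment, and every column matched 1 sample.

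From the deposited counts, genes were kept with filterByExpr (12021 of 16314) and tested with the quasi-likelihood test of edgeR 4.0.16 in R 4.3.3 after TMM scaling (factors 0.818 to 1.20), with 1 coefficient per group over all 18 libraries and Benjamini-Hochberg adjustment over all genes tested. Calls needed a fold change over 1.5 and an adjusted p under 0.05, the criteria of the study, which used DESeq2. DESeq2 (1.42.0), its size factors, other filters, only the libraries compared, a test against the fold criterion, a replicate block and leaving out each library were alternatives. What separated the replicates in culture is not stated in the labels, so p-values measure the spread between these samples, which the study calls biological replicates. The 10 genes, the lists and the rules were chosen with earlier results of these data known. The text names the 10 genes, from the wider list the 2 largest called rises and falls per knockout comparison with *Hmox1*, *Bach1* and *Sqstm1*, and for each of the 10 the gene and the member of most similar profile.

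Libraries of the same replicate number deviated together from their group means in every pair in the M2 knockout comparison (correlations 0.249, 0.255 and 0.462) and in M1 against M0 in *Prep*-/- cells (0.201, 0.169 and 0.259), which was taken as pairing there. It comes from these correlations alone, which are not independent, since each deviation is from a mean over the same 3 libraries. Libraries of different numbers were not compared, and the main tests did not use the pairing. On simulated counts for the M0 knockout comparison (11807 genes), edgeR recovered 66% of genes changed 2-fold and 90% of those changed 4-fold, while 3.7% of the genes it called were unchanged ones. Those counts were drawn independently, with 100 genes changed at each size and no library standing apart. The rates therefore need not hold for these data. Positions, promoters and copies (blastn 2.17.0, at least 90% identity over 200 bases) were taken from GRCm39 with an annotation that may not be the authors' release. Python 3.11.15 with matplotlib 3.10.9 made the figures. Counting error weighs most on low counts such as those of *Slc7a11*, which had as few as 6.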

Additional observations from a re-analysis of the deposited data

Results flagged for a closer look

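A difference of the *Prep* knockout effect between states was called for some of the 10 genes, by edgeR's test of the difference of log2 fold changes (*Prep*-/- against *Prep*+/-) with Benjamini-Hochberg adjustment over all genes. These were 5 of the 10 between M1 and M0, where 21.1% of all genes were called, and 4 of the 10 between M2 and M0, where 8.66% were. Between M1 and M0 the difference was 1.91 ± 0.32 (SE) for *Gclc* (adjusted p = 0.000680) and 1.59 ± 0.28 for *Gclm* (adjusted p = 0.000801). It was 1.32 ± 0.36 for *Txnrd1* (adjusted p = 0.0148) and 0.89 ± 0.27 for *Srxn1* (adjusted p = 0.0262). *Sod2* had a difference of -0.80 ± 0.23 (adjusted p = 0.0193), and it was called lower in M1 but not in M0. Between M2 and M0 the difference was 2.71 ± 0.72 for *Slc7a11* (adjusted p = 0.0264), 1.39 ± 0.32 for *Gclc* (adjusted p = 0.0131), 1.38 ± 0.36 for *Txnrd1* (adjusted p = 0.0249) and 1.15 ± 0.27 for *Srxn1* (adjusted p = 0.0165). Without *Prep*-/- M2 replicate 3 these were 2.17 for *Slc7a11*, 1.04 for *Gclc*, 0.82 for *Txnrd1* and 0.77 for *Srxn1*, all still called. Both sets of differences use the same 6 M0 libraries. Each of these 9 differences kept its direction in every alternative. The calls of *Gclm*, *Gclc* and *Txnrd1* between M1 and M0 held when any 1 library was left out. Those of *Srxn1* and *Sod2* did not: without *Prep*+/- M0 replicate 3 they were 0.83 (adjusted p = 0.0643) and -0.66 (adjusted p = 0.0629), and the other losses were *Srxn1* without *Prep*+/- M1 replicate 2 or 3 or *Prep*-/- M1 replicate 1 (adjusted p 0.0514 to 0.0606) and *Sod2* without *Prep*-/- M0 replicate 1 or *Prep*+/- M1 replicate 2 (adjusted p 0.0539 and 0.0553). Between M2 and M0, the call of *Slc7a11* was lost without *Prep*+/- M0 replicate 2 or 3, *Prep*-/- M0 replicate 3 or *Prep*+/- M2 replicate 1 or 2 (adjusted p 0.0539 to 0.0864), and that of *Txnrd1* without *Prep*+/- M0 replicate 2 or 3 or *Prep*+/- M2 replicate 1 or 2 (adjusted p 0.0609 to 0.0693).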

How the results depend on the processing

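Of the 90 values of the 10 genes in the 9 comparisons, which share libraries, 42 were called. The share of all genes called ran from 8.66% to 42.0% by comparison. Recomputed under the alternatives other than the change of call rule, the 90 values gave 1290 values, of which 554 stayed called and 683 stayed uncalled, 46 lost the call, 7 gained one and 0 reversed, and 50 changed sign without being called in either setting. Under the test against a fold change of 1.5 the calls were 4 of 10 in the M0 knockout comparison (*Gclm*, *Gclc*, *Gsr* and *Txnrd1*), 0 in M1 and 0 in M2. Of all 12021 genes, 1970 (16.4%), 634 (5.27%) and 723 (6.01%) were called there. The same test gave 1 call for M2 against M0 in *Prep*+/- cells, where 5.59% of all genes were called. For the difference of the knockout effect from M0 it gave 2 in M1 and 0 in M2, where 6.25% and 0.857% of all genes were called. Among only the libraries compared, the difference between M2 and M0 gave 1 call (*Gclc*), where 252 of 11803 genes were called higher and 310 lower. With a replicate block among only the libraries compared, M2 against M0 in *Prep*-/- cells gave 1 call (*Slc7a11*). There 1198 of 11433 genes were called higher and 1143 lower. The difference between M2 and M0 gave 2 with this block (*Slc7a11* and *Srxn1*), where 306 of 11803 genes were called higher and 363 lower. Between *Prep*-/- M0 and M2 libraries the numbers do not pair the samples by their correlations. A block over all 18 libraries left the count of called genes in the M0 knockout comparison at 7, where 1830 of 12021 genes were called higher and 2097 lower. Leaving out 1 library gave 6 to 7 calls in the M0 knockout comparison, 3 in M1 and 2 to 4 in M2, 1 to 2 for M2 against M0 in *Prep*+/- and 4 to 6 in *Prep*-/- cells, and 3 to 5 and 2 to 5 for the differences in M1 and in M2. Calls over all 12146 to 12173 genes tested moved too. In M0 they were 1543 to 1953 higher and 1950 to 2246 lower. In M1 they were 961 to 1518 and 781 to 1346, in M2 561 to 1046 and 865 to 1581. For M2 against M0 they were 622 to 672 and 633 to 756 in *Prep*+/-, 1421 to 1879 and 1735 to 2082 in *Prep*-/-. For the differences they were 1072 to 1664 and 784 to 1423 in M1, 268 to 830 and 234 to 619 in M2. The cause of these changes was not tested. Size factors of DESeq2 in place of TMM, and no filter on low counts, moved the median of all genes by less than 0.1 on the log2 scale. With 3 libraries per group, edgeR recovered 38% of simulated 2-fold differences of the knockout effect between M1 and M0, so that genes not called there may still differ.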
